A study of Mus musculus with 15 samples.

Results

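The genes described here are a list of 48 mouse interferon response genes, measured in cultured stromal cells of the heart. Each was taken by name and read from the probe set that named that gene alone, the one with the highest mean over the arrays where several did. Of the 48 listed genes 43 were measured, among 19938 genes on the array. Isg15, Gbp2, Igtp and Irgm2 were named only on probe sets that name other genes too, and Ifi44 was named by none, so these 5 were not analysed here.

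The cells were cardiac colony-forming unit fibroblasts (cCFU-F), stromal cells that grow out as colonies from single cells, isolated as SCA1+PDGFRα+CD31- cells from the hearts of male C57BL/6 mice aged 12 weeks. RNA was measured on 15 Affymetrix whole-transcript arrays, 3 in each of 5 groups. Large colonies, untreated, were profiled at passages 5 and 15. Small colonies were profiled untreated at passage 5 only, and at both passages after growth in PDGF-AB (50 ng/ml), a dimeric platelet-derived growth factor. The design held no untreated small colonies at passage 15 and no treated large colonies, so colony size and PDGF-AB cannot be told apart wherever treated small colonies are set against large ones, nor PDGF-AB from passage where late treated colonies are set against early untreated ones. The labels name the PDGF receptor inhibitor AG1296 in the treatment protocol, and no sample was labelled with it. Nothing in them says if replicate arrays stem from different animals or cultures, so a p-value here reflects only array-to-array spread, which could be technical.

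All values are log2 intensities, with levels given per array or as mean ± SD (n = 3). Changes are log2 differences of group means ± SE of the fit, a fold is the ratio of intensities, and a gene is called where the limma adjusted p over 19938 genes is under 0.05. Where genes are counted as lower, higher, fallen or risen in a comparison, only called genes are counted. Array medians lay between 5.59 and 5.72, and Pearson's r across genes, which are not independent replicates, was 0.997 to 0.998 within groups. The 9 measured stromal markers all lay above the median gene, whereas 0 of 8 endothelial and 3 of 14 macrophage and leukocyte markers did. The gene of SCA1 itself, Ly6a, had no named probe set. One label was not borne out: the cells are labelled male, but Xist, the RNA of the inactive X chromosome of female cells, read 8.93 to 10.88 in the 15 arrays, and the Y-linked genes Kdm5d, Eif2s3y and Uty read 2.24 to 3.40, under every array's lower quartile (4.06 to 4.23). This holds for all groups alike.

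Interferons are cytokines that cells release when they sense viral nucleic acid or their own nucleic acid out of place. Type I interferons bind the receptor pair IFNAR1 and IFNAR2, whose JAK kinases phosphorylate STAT2. It joins IRF9 in a complex that binds interferon-stimulated response elements (ISRE) in promoters and switches on a large set of genes, among them the complex's own subunits and IRF7. Interferon gamma acts through GAS elements, with IRF1 as an early target. Fibroblasts keep a low tonic signal of this kind in culture.

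Promoter sequence was at hand in RefSeq (GRCm38.p6) for 33 of the 43 measured genes, as windows of 300 bases, 250 before and 50 after the start. A gene could have several starts (32851 windows for 27025 genes), and it was counted where any of its windows held a match. The ISRE core GAAANNGAAA (TTTCNNTTTC on the other strand, N any base) was found in 12 of the 33 members, or 36.4%, against 3.99% of 27025 genes with a window. The GAS core TTCNNNGAA was found in 8 members, or 24.2%, against 9.55% of all genes, and 3 members held both. A match is a run of letters and not a shown binding site, and a window without one says nothing of the factor. The stretches below are 120 bases each, 5′ to 3′ on the gene's own strand, with ISRE cores in capitals (in Irf1 the GAS core). Ifit1, Ifit3, Gbp3 and Bst2 are shown because each holds a pair of ISRE cores (overlapping in Gbp3 and Bst2). The window of Irgm1 also held 2 ISRE cores and is not shown, and that gene changed by only -0.29 with PDGF-AB. Stat2 is shown as a subunit of the factor that binds them, Oas3 because it holds the motif and hardly varied, and Irf1 for its GAS core.

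Ifit1 (chr19:34640769-34640888, plus strand): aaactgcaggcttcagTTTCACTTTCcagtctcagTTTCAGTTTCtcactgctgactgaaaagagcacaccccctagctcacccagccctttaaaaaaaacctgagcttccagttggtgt
Ifit3 (chr19:34583359-34583478, plus strand): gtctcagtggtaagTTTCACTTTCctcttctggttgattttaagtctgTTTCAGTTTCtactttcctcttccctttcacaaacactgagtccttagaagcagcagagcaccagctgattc
Gbp3 (chr3:142559924-142560043, plus strand): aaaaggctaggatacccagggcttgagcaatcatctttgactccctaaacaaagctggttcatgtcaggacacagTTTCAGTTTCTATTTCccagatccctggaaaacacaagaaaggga
Bst2 (chr8:71537513-71537632, minus strand): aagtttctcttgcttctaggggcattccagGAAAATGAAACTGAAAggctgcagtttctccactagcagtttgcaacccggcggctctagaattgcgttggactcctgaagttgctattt
Stat2 (chr10:128270258-128270377, plus strand): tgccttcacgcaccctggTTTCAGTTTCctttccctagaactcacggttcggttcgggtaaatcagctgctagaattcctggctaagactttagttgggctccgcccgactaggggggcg
Oas3 (chr5:120777660-120777779, minus strand): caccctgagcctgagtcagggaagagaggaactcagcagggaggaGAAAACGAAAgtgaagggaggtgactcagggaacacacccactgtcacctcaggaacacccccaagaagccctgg
Irf1 (chr11:53769894-53770013, plus strand): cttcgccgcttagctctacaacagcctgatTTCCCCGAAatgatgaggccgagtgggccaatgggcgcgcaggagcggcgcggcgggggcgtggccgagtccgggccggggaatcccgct

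The motifs began 104 and 85 bases before the start in Ifit1, 156 and 122 in Ifit3, 45 and 39 in Gbp3, and 130 and 124 in Bst2. Bst2 also holds a GAS core that begins 136 bases before the start, runs into the first ISRE core and is not set in capitals apart from the bases they share. In Stat2 the single match began 222 bases before the start, in Oas3 75 and in Irf1 90. The annotated Ifit3 gene begins at base 34583119, so its stretch lies inside the gene and its positions count from a later start. The starts used for Gbp3 and Oas3 also lie inside the annotated genes, which begin at base 142560016 (Gbp3, plus strand) and 120777684 (Oas3, minus strand). The windows of Oasl2, Irf7, Irf9 and Trim25 held no ISRE core, and all 4 genes were among those that varied most between groups.

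Across the 5 groups the members followed mostly 1 pattern: they were high in untreated small colonies at passage 5 and low in the other groups. The mean of untreated small colonies was the highest of the 5 in 36 of 43 members (83.7%), against 14.1% of all genes. In 32 members (74.4%) all 3 of its arrays lay above the other 12, against 5.28% of all genes. Among the other 4 groups the group means of a member spanned a median of 0.49, against 0.37 over all genes. The gap to the next group was widest in Ifit1 (5.87-fold), Oasl2 (4.21-fold), Rtp4 (3.99-fold), Usp18 (3.89-fold) and Trim30a (3.46-fold).

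**Figure D1:**
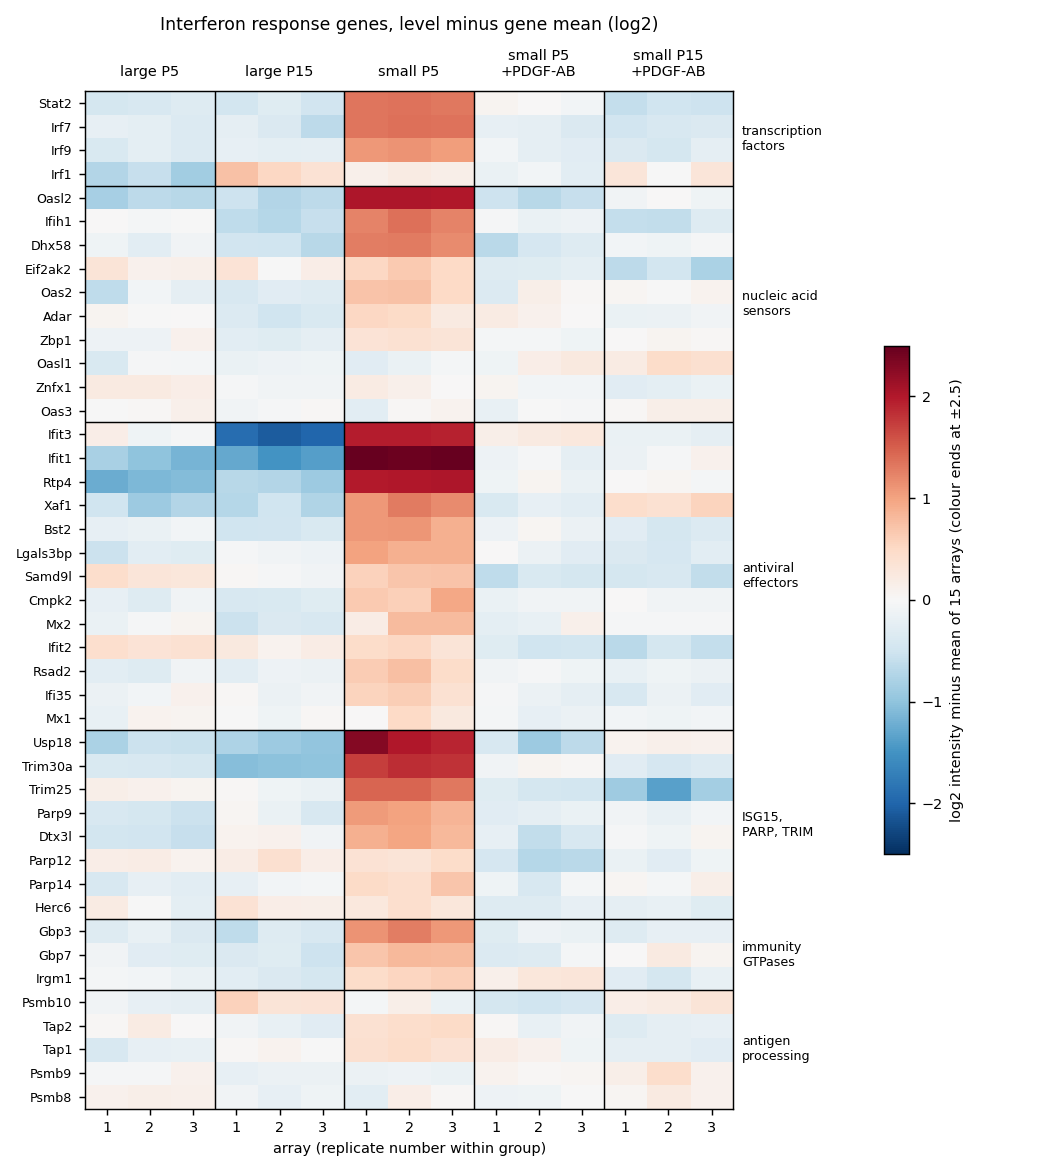
Log2 intensity of the 43 measured genes in the 15 arrays, each gene minus its own mean over the arrays, grouped by role and ordered within a role by the span of the group means. The 3 arrays of untreated small colonies (small P5) are the highest of the 15 in 32 genes (5.28% of all genes show this). By the span of the group means the sensor Oas3 varies least, followed by Psmb8 among the antigen processing genes at the bottom.

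Of the other 11 members, 4 had their highest mean in untreated small colonies with overlapping arrays (Mx1, Parp12, Herc6 and Ifit2). Znfx1 was highest in large colonies at passage 5, Irf1 and Psmb10 in large colonies at passage 15, and Oas3, Oasl1, Psmb8 and Psmb9 in treated small colonies at passage 15. Mx1 and Mx2 encode antiviral GTPases, and both are known to be defective in common laboratory strains such as C57BL/6. Both read below the highest lower quartile of the arrays in every group mean, as Cmpk2 and Rtp4 did in some, and their folds depend on background. Related genes such as Oasl1 and Oasl2, the Gbp genes, the Trim30 family and Ifit3 with Ifit3b may share hybridisation, so their separate values are less certain.

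The comparison of PDGF-AB with no treatment in small colonies at passage 5 asked what the growth factor changed. Of the 43 members 38 were called lower and 1 higher. By sign alone 41 changes were negative and 2 positive. Over all genes 28.9% were called, 18.2% lower and 10.7% higher. The members' median change was -0.86, a 1.81-fold fall, where the median of all genes was 0.02. A total of 19 members fell at least 2-fold, against 0.983% of all genes, and 0 rose that far, against 0.411%. Fewer cells with an active interferon response and less RNA of these genes per cell cannot be told apart in RNA from whole cultures.

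All 4 transcription factors fell with PDGF-AB, where 18.2% of all genes did. Stat2, the subunit that carries the complex's activation domain, read 9.20, 9.20 and 9.17 in untreated small colonies, 7.91, 7.85 and 7.79 with PDGF-AB at passage 5 and 7.26, 7.36 and 7.33 with it at passage 15. In large colonies Stat2 read 7.42, 7.45 and 7.52 at passage 5 and 7.40, 7.55 and 7.37 at passage 15. No array of another group came near the untreated small colonies, and the fall was 2.53-fold (-1.34 ± 0.0602, limma adjusted p = 6.9e-11). Irf9, the DNA-binding subunit of the same complex, went from 8.54, 8.57 and 8.50 to 7.38, 7.22 and 7.18, a 2.42-fold fall (adjusted p = 4.9e-10). Its other groups lay at 7.13 ± 0.0674 (large, passage 5), 7.23 ± 0.0231 (large, passage 15) and 7.11 ± 0.102 (treated small, passage 15), close to the treated early colonies. Irf7, the factor that amplifies type I interferon transcription, fell from 7.38, 7.43 and 7.40 to 5.84, 5.82 and 5.68, or 3.08-fold (-1.62 ± 0.085, adjusted p = 4.9e-10), and its 3 remaining group means lay between 5.63 and 5.78, like the treated early colonies.

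Irf1, the target of interferon gamma and of inflammatory signals, stood apart from these. It read 7.33, 7.39 and 7.35 in untreated small colonies and 7.02, 7.12 and 6.93 with PDGF-AB, and its change of -0.33 ± 0.101 (adjusted p = 0.0198) was the smallest of the 4. The untreated small colonies were not its highest group. Large colonies read 6.46, 6.62 and 6.34 at passage 5, all below the other 12 arrays, and 7.92, 7.70 and 7.55 at passage 15, all above them. Late treated colonies read 7.49, 7.19 and 7.51. The call with PDGF-AB was lost without replicate 2 of the untreated small colonies (adjusted p = 0.0646) and without replicate 3 of the treated early ones (adjusted p = 0.0839). A second Irf1 probe set, dimmer in every group, went from 5.46 ± 0.216 to 5.62 ± 0.117 with PDGF-AB, the other way, and the mean of the pair of probe sets gave -0.09 (adjusted p = 0.373).

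Of 10 nucleic acid sensors 7 fell with PDGF-AB, where 18.2% of all genes did. Oasl2, a relative of the oligoadenylate synthetases, read 8.21, 8.22 and 8.21 in untreated small colonies against 5.68, 5.52 and 5.62 in treated ones, a 6.09-fold fall (-2.61 ± 0.0689, adjusted p = 1.6e-13). The late treated arrays read 6.12, 6.21 and 6.09, and the 6 arrays of large colonies lay lower still, at 5.36, 5.55 and 5.51 (passage 5) and 5.68, 5.48 and 5.54 (passage 15). The lowest untreated small array stood well above the highest array of any other group. Ifih1, which encodes the cytosolic double-stranded RNA sensor MDA5, went from 6.99, 7.13 and 6.99 to 5.72, 5.59 and 5.62, a fall of 2.62-fold (adjusted p = 6.2e-10). Dhx58, the related helicase LGP2, went from 6.42, 6.45 and 6.33 to 4.47, 4.73 and 4.82, a fall of 3.31-fold (adjusted p = 1.8e-10). Eif2ak2, the kinase PKR that halts translation on double-stranded RNA, fell 1.79-fold from 7.65, 7.79 and 7.64 to 6.82, 6.84 and 6.90.

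Oas2, an oligoadenylate synthetase (-0.70), Zbp1, a sensor of Z-form nucleic acid (-0.42), and Adar, the enzyme that edits double-stranded RNA (-0.31), were called lower too. The other 3 sensors were not called: Oas3 changed by -0.03 ± 0.0823 (adjusted p = 0.836), Znfx1, an RNA helicase on the mitochondrial surface, by -0.14 ± 0.0626 (adjusted p = 0.105), and Oasl1 by 0.26 ± 0.106 (adjusted p = 0.0752). Oas3 read 4.94, 5.21 and 5.29 without and 5.01, 5.18 and 5.16 with PDGF-AB, with overlapping arrays, although its promoter holds an ISRE core. Oasl1 was called higher without replicate 1 of the treated early colonies (0.37, adjusted p = 0.0162), and Znfx1 lower without replicate 3 of the untreated small colonies (-0.19, adjusted p = 0.0388).

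All 13 antiviral effectors fell with PDGF-AB (18.2% of all genes did), with a median of -1.07. Ifit1, whose protein binds viral RNA that lacks the host's cap methylation, read 8.94, 8.73 and 8.79 in untreated small colonies and 6.17, 6.26 and 6.06 in treated ones, a 6.29-fold fall (-2.65 ± 0.0924, adjusted p = 3.6e-12). Late treated colonies read 6.14, 6.26 and 6.39, large colonies 5.47, 5.28 and 5.13 at passage 5 and 5.01, 4.80 and 4.91 at passage 15. Treated small colonies of both passages thus lay between untreated small colonies at passage 5 and large ones, with no array shared. Untreated small colonies were not profiled at passage 15, so the late reading mixes treatment and passage. Ifit3, a partner of Ifit1, went from 10.07, 10.07 and 10.03 to 8.26, 8.32 and 8.36, a 3.34-fold fall (adjusted p = 1.5e-11). Ifit3 also separated the large colonies by passage, at 8.27, 8.00 and 8.09 early and 6.21, 6.03 and 6.12 late. Rtp4, a chaperone of receptors that is induced by interferon, went from 7.26, 7.27 and 7.30 to 5.16, 5.33 and 5.10 (4.23-fold, adjusted p = 3.1e-12).

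Xaf1, a pro-apoptotic partner of XIAP, went from 7.08, 7.29 and 7.17 to 5.61, 5.79 and 5.73, a 2.77-fold fall (adjusted p = 8.9e-09). Bst2, the tether that holds budding virus at the cell surface, went from 8.25, 8.27 and 8.05 to 7.04, 7.21 and 7.01, and Lgals3bp, a secreted galectin-binding glycoprotein, from 11.07, 10.95 and 10.96 to 10.07, 9.91 and 9.78. Both fell by similar amounts (-1.10 ± 0.0742 and -1.07 ± 0.081), and neither pair of groups overlapped. Samd9l, a restriction factor of poxviruses, went from 7.05, 7.17 and 7.19 to 5.85, 6.08 and 6.03, 2.22-fold lower. The remaining 6 fell by smaller amounts: Ifit2 (-0.86), Cmpk2, a mitochondrial nucleotide kinase (-0.85), Rsad2, the radical SAM enzyme viperin (-0.70), Mx2 (-0.69), Ifi35 (-0.65) and Mx1 (-0.38). The call of Mx1 was lost without replicate 2 of the untreated small colonies (adjusted p = 0.054).

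**Figure D2:**
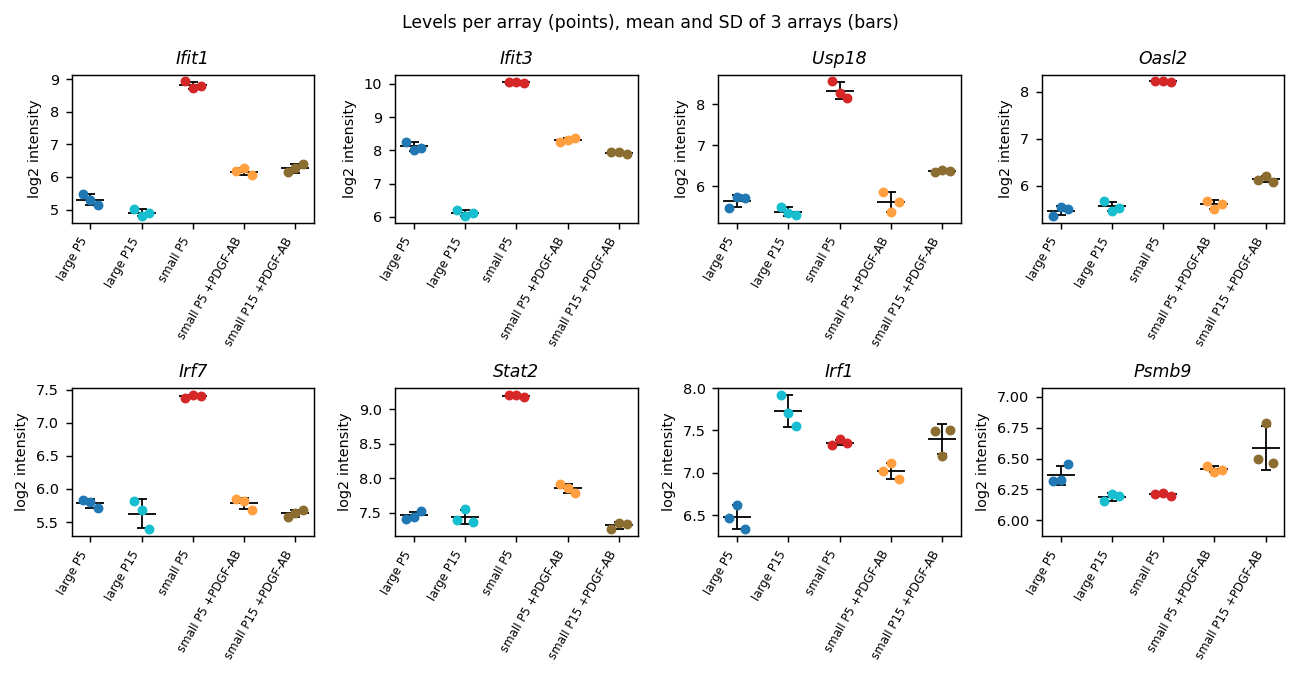
Log2 intensity of 8 interferon response genes in each array (points), with the mean and SD of the 3 arrays of a group (bars), the axes fitted to each gene. Untreated small colonies stand alone at the top in Ifit1, Ifit3, Usp18, Oasl2, Irf7 and Stat2, whereas Irf1 was highest in late large colonies and Psmb9 in late treated small colonies.

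All 8 genes of ISG15 conjugation, ADP-ribosylation and the TRIM family fell with PDGF-AB (18.2% of all genes did), with a median of -1.25. Usp18, the protease that removes ISG15 and also dampens signalling at IFNAR2, read 8.57, 8.27 and 8.17 without and 5.86, 5.36 and 5.61 with PDGF-AB, a 6.62-fold fall (-2.73 ± 0.117, adjusted p = 4.2e-11) and the largest of all members. Its other groups lay at 6.35, 6.40 and 6.38 (treated small, passage 15), 5.48, 5.73 and 5.71 (large, passage 5) and 5.50, 5.36 and 5.29 (large, passage 15). Late treated colonies were thus above every array of the early treated and of the large ones. Trim25, the ubiquitin ligase that acts on the sensor RIG-I, went from 7.56, 7.57 and 7.44 to 5.81, 5.68 and 5.65 (3.51-fold lower). It lay lower again in late treated colonies (5.22, 4.76 and 5.27), below both groups of large colonies. Trim30a went from 8.91, 9.02 and 8.98 to 7.08, 7.24 and 7.20 (3.46-fold lower, adjusted p = 1.8e-12).

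Parp9 and Dtx3l, whose proteins form one ubiquitin ligase, fell alike: Parp9 went from 7.78, 7.73 and 7.56 to 6.43, 6.49 and 6.55 (-1.20 ± 0.0937) and Dtx3l from 7.63, 7.73 and 7.57 to 6.54, 6.14 and 6.35 (-1.30 ± 0.0887). Parp12 (-0.98) and Parp14 (-0.71), mono-ADP-ribosyltransferases, and Herc6, the mouse ligase that attaches ISG15 (-0.60), fell less. All 3 immunity GTPases, which attack vacuoles of intracellular pathogens, were called lower (18.2% of all genes were). Gbp3 read 6.35, 6.51 and 6.30 without and 4.93, 5.09 and 5.05 with PDGF-AB (2.57-fold lower), Gbp7 read 5.90, 6.02 and 6.01 and 4.89, 4.89 and 5.18 (1.99-fold lower), and Irgm1 changed by -0.29 ± 0.0751.

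The antigen processing genes, which supply peptides to MHC class I, moved least (median -0.35). Tap1 and Tap2, the subunits of the peptide transporter, fell by 0.35 and 0.51 on the log2 scale, and the immunoproteasome subunit Psmb10 went from 7.68, 7.87 and 7.55 to 7.29, 7.22 and 7.30 (-0.43 ± 0.0853, adjusted p = 0.00111). Psmb8 changed by -0.05 ± 0.0867 and was not called. Psmb9, another immunoproteasome subunit, was the only member called higher, from 6.21, 6.22 and 6.19 to 6.44, 6.39 and 6.41 (0.20 ± 0.0734, adjusted p = 0.048). That call was lost without any 1 of the 6 arrays compared (adjusted p 0.0825 to 0.110), although the arrays of the groups did not overlap.

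**Figure D3:**
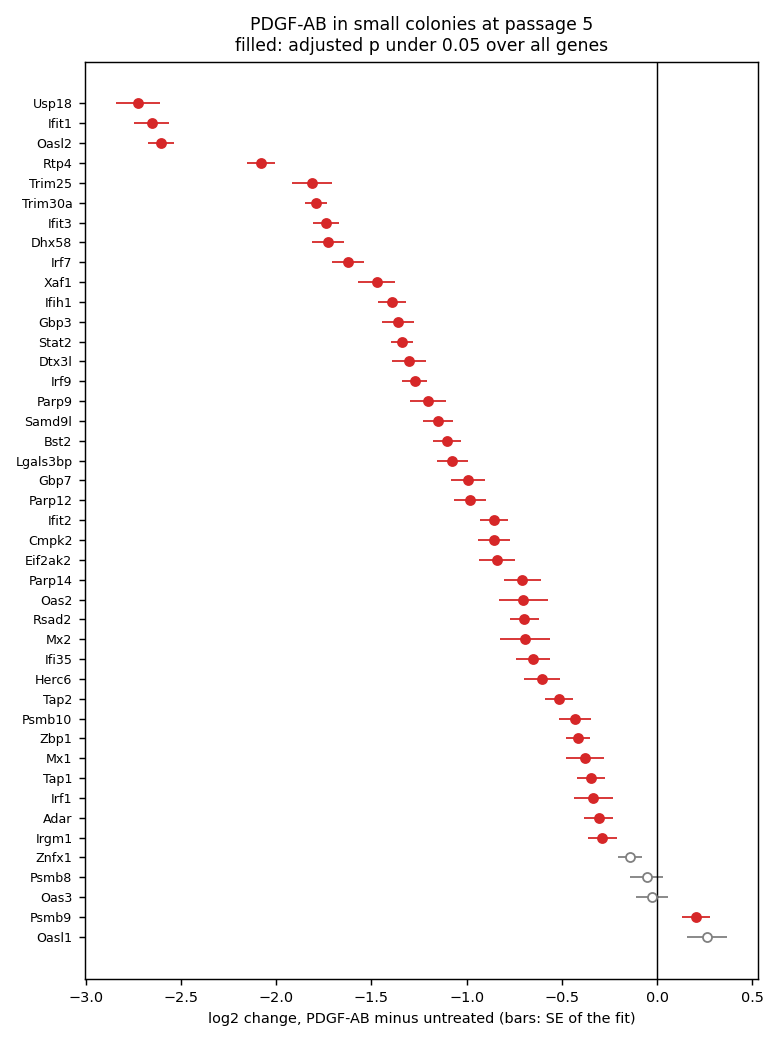
Log2 change of the 43 genes with PDGF-AB in small colonies at passage 5, as the fitted difference of 3 treated and 3 untreated arrays with its SE (bars). Filled points were called, 38 below 0 and 1 (Psmb9) above it, and the 4 open points are Znfx1, Psmb8, Oas3 and Oasl1.

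Members whose promoter window held an ISRE core had a median change of -1.22 (12 genes, 11 called lower, range -2.65 to -0.03). Those without one had a median of -0.85 (21 genes, 17 called lower, range -2.61 to 0.26), so the ranges overlapped almost wholly. Other markers also moved in this comparison, and their part in the result was not tested. All 6 cell division markers fell (median -1.44), as did 7 of 9 stromal markers, most of all Lum (-1.67). At passage 15 the division markers were at their highest. Their array means there were 8.84 to 8.97 in large and 9.32 to 9.42 in treated small colonies. In untreated small colonies at passage 5 they were 6.85 to 6.86. Of 14 macrophage and leukocyte markers 3 were called lower and 0 higher, where 18.2% of all genes were called lower: Cd14 (-1.24), Mertk (-0.32) and Cd68 (-0.23). The mean level of that list was 5.32 to 5.34 in untreated and 5.18 to 5.21 in treated arrays.

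Large and small untreated colonies at passage 5 were compared next, which asked how the colony types differ without the growth factor. It shares its untreated small arrays with the PDGF-AB comparison, so the directions are not independent of each other, and each is given by its own values. Of the 43 members 35 were lower in large colonies and 0 higher, where 36.2% of all genes were called, 18.0% lower and 18.2% higher. The members' median difference was -0.88, against 0.03 over all genes, and 18 were at least 2-fold lower, against 2.11% of all genes (1.82% were at least 2-fold higher). All 4 transcription factors, all 8 genes of the ISG15, ADP-ribosylation and TRIM group and all 3 GTPases were called lower, as were 11 of 13 effectors, 7 of 10 sensors and 2 of 5 antigen processing genes (Tap1, -0.67, and Tap2, -0.34).

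Ifit1 showed the largest difference, at 11.5-fold (-3.52 ± 0.0924, limma adjusted p = 1.7e-14), followed by Rtp4 (8.92-fold), Oasl2 (6.68-fold), Usp18 (6.48-fold) and Trim30a (4.6-fold). Rtp4 read 4.03, 4.15 and 4.19 in large colonies, below the highest lower quartile of the arrays (4.23), so its fold depends on background. Xaf1 read 5.49, 5.09 and 5.25 in large against 7.08, 7.29 and 7.17 in small colonies (-1.91). Stat2 (-1.73), Irf7 (-1.62), Irf9 (-1.40) and Irf1 (-0.88) were all lower. The second Irf1 probe set read 5.46 in both groups, and the mean of both probe sets gave -0.44. The 8 members not called were Mx1 (-0.26, adjusted p = 0.0562), Ifit2 (-0.06), Psmb8 (0.15), Psmb9 (0.16), Psmb10 (-0.14), Znfx1 (0.09), Oas3 (0.10) and Oasl1 (0.01). Mx1 was called lower without replicate 1 of the small colonies (adjusted p = 0.00525) or replicate 2 of the large ones (adjusted p = 0.0482), and Psmb8 higher without replicate 2 of the small ones (adjusted p = 0.0368).

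For some members, among them Ifit2, Samd9l, Parp12, Eif2ak2 and Psmb10, the large colonies lay nearer to untreated than to treated small ones. Ifit2 read 7.50, 7.42 and 7.47 in large and 7.55, 7.61 and 7.42 in untreated small colonies, which overlapped, but 6.78, 6.59 and 6.63 in treated early ones. Samd9l read 6.91, 6.77 and 6.75 in large colonies (-0.33 against untreated small) and 5.85, 6.08 and 6.03 in treated ones (-1.15). The passage 5 means of large, untreated small and treated small colonies were 8.26, 8.49 and 7.51 for Parp12. They were 7.33, 7.69 and 6.85 for Eif2ak2, and 7.56, 7.70 and 7.27 for Psmb10. Parp12 was marginal here, at -0.23 (adjusted p = 0.0391), lost without 5 of the 6 arrays in turn (adjusted p 0.0587 to 0.129, all but replicate 2 of the small colonies), and Herc6 (-0.34) was lost without replicate 3 of the large ones (adjusted p = 0.0551). Of the 14 macrophage and leukocyte markers 2 were called higher and 2 lower in large colonies, with a median of 0.07 and Cd14, a monocyte gene, at -1.86. Of the 9 stromal markers 3 were called higher and 3 lower (range -2.55 to 5.22). Over all genes 18.2% were called higher and 18.0% lower. All 6 division markers were lower (median -1.45). The part of these marker lists in the result was not tested.

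Treated small colonies were set against untreated large ones at the same passage, where size and treatment cannot be told apart. At passage 5 the members were split, with 10 higher and 9 lower in treated small colonies (14.8% and 20.9% of all genes, 35.7% in all), and the median was 0.07 (-0.01 over all genes). Rtp4 alone differed by at least 2-fold, where 1.62% of all genes were that far higher and 2.02% lower (2.11-fold higher, 1.08 ± 0.0715, limma adjusted p = 3.2e-09). Ifit1 (0.87), Irf1 (0.55), Xaf1 (0.43), Trim30a (0.41) and Stat2 (0.39) were higher in treated small colonies. Samd9l (-0.82), Ifit2 (-0.80), Parp12 (-0.75), Trim25 (-0.51) and Eif2ak2 (-0.47) were lower. Irf7 and Usp18, which fell strongly with PDGF-AB, differed from large colonies by 0.00 ± 0.085 and -0.03 ± 0.117 and were not called. The mean of both Irf1 probe sets gave 0.35. Of the 9 stromal markers 3 were higher and 5 lower (range -5.14 to 2.13), and their part was not tested.

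At passage 15, 18 members were higher and 10 lower in treated small colonies (29.2% and 24.2% of all genes, 53.4% in all), and the median was 0.09 against 0.07. That balance was not stable: when genes under the median level were dropped 8 were higher and 11 lower (median -0.09), and cyclic loess gave 12 and 8 (median 0.01). Ifit3 was 3.5-fold higher (1.81 ± 0.0681, limma adjusted p = 1.3e-12), Ifit1 2.57-fold and Xaf1 2.17-fold, and no other member reached 2-fold (1.26% of all genes were that far higher and 3.38% lower). Usp18 (0.99), Rtp4 (0.79), Trim30a (0.69), Oasl2 (0.58), Oasl1 (0.49) and Psmb9 (0.39) were also higher. Trim25 (-0.95), Eif2ak2 (-0.81), Ifit2 (-0.75), Samd9l (-0.46), Herc6 (-0.46) and Parp12 (-0.43) were lower. Among the transcription factors Irf1 alone was called (-0.33, adjusted p = 0.0117). That call was lost without replicate 1 of the late large colonies or replicate 2 of the late treated ones (adjusted p = 0.0743 and 0.0741), and with the mean of its probe sets (-0.14, adjusted p = 0.095). Of the markers, 3 of 9 stromal, 3 of 14 macrophage and leukocyte and 5 of 8 endothelial genes were called higher, and 5, 6 and 0 lower. Their part was not tested.

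The effect of passage was measured separately in large colonies and in treated small colonies. In large colonies 15 members fell and 7 rose from passage 5 to 15 (18.7% and 17.4% of all genes, 36.1% in all), with a median of -0.15 against -0.04. In all 1 member fell at least 2-fold and 1 rose as far (1.18% and 2.59% of all genes). Ifit3 fell 4-fold (limma adjusted p = 6.2e-13), from 8.27, 8.00 and 8.09 to 6.21, 6.03 and 6.12. Trim30a (-0.63), Ifih1 (-0.63), Adar (-0.42), Dhx58 (-0.40) and Ifit1 (-0.39) fell less. Irf1 rose 2.39-fold (1.26 ± 0.101, adjusted p = 3.4e-08), whereas its second probe set changed by 0.09 and the mean of both by 0.68. Psmb10 (0.58), Dtx3l (0.55), Rtp4 (0.37) and Tap1 (0.30) also rose. All 3 late large arrays lay below the other 12 in Zbp1, Adar, Ifit1, Ifit3, Mx2 and Trim30a. That was 6 of 43 members (14.0%), against 4.88% of all genes.

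In treated small colonies 11 members fell and 9 rose with passage (21.4% and 24.6% of all genes, 46.0% in all), the median was 0.05 as over all genes (-0.15 when genes under the median level were dropped), and 0 of the 20 changed 2-fold (2.79% of all genes fell and 2.47% rose that far). Usp18 (0.77 ± 0.117, limma adjusted p = 3.9e-05), Xaf1 (0.74), Psmb10 (0.68), Oasl2 (0.53), Parp12 (0.42), Dhx58 (0.40) and Irf1 (0.38, or 0.18 with both probe sets) rose. Trim25 (-0.63), Irgm1 (-0.55), Stat2 (-0.54 ± 0.0602, adjusted p = 1.4e-06), Ifih1 (-0.40), Ifit3 (-0.39), Trim30a (-0.36) and Eif2ak2 (-0.35) fell. Stat2, Eif2ak2, Znfx1 and Trim25 had all 3 late treated arrays below the other 12. That was 4 of 43 members (9.3%), a smaller share than over all genes (11.2%).

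The passage changes of large and of treated small colonies differed in 19 members by the test of the difference itself (34.4% of all genes were called in it), 12 higher and 7 lower in treated small colonies (18.6% and 15.9% of all genes). Ifit3 differed most (1.61 ± 0.0964, limma adjusted p = 1.7e-09), as it fell 4-fold in large and 1.31-fold in treated small colonies. Only Ifit3 and Usp18 differed by at least 2-fold (1.41% of all genes were that far higher and 2.82% lower). Usp18 differed by 1.02 ± 0.165 and Irf1 by -0.88 ± 0.143 (-0.50 with the mean of its probe sets). Dhx58 and Tap1 were called in opposite directions: Dhx58 changed by -0.40 in large and 0.40 in treated small colonies, Tap1 by 0.30 and -0.31. Irf7 (0.00 ± 0.12), Bst2 (0.02 ± 0.105) and Ifit2 (0.05 ± 0.105) were among the 24 members not called. All 6 cell division markers rose with passage in both kinds of culture (medians 3.59 in large and 4.13 in treated small colonies), and their part in these changes was not tested.

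**Figure D4:**
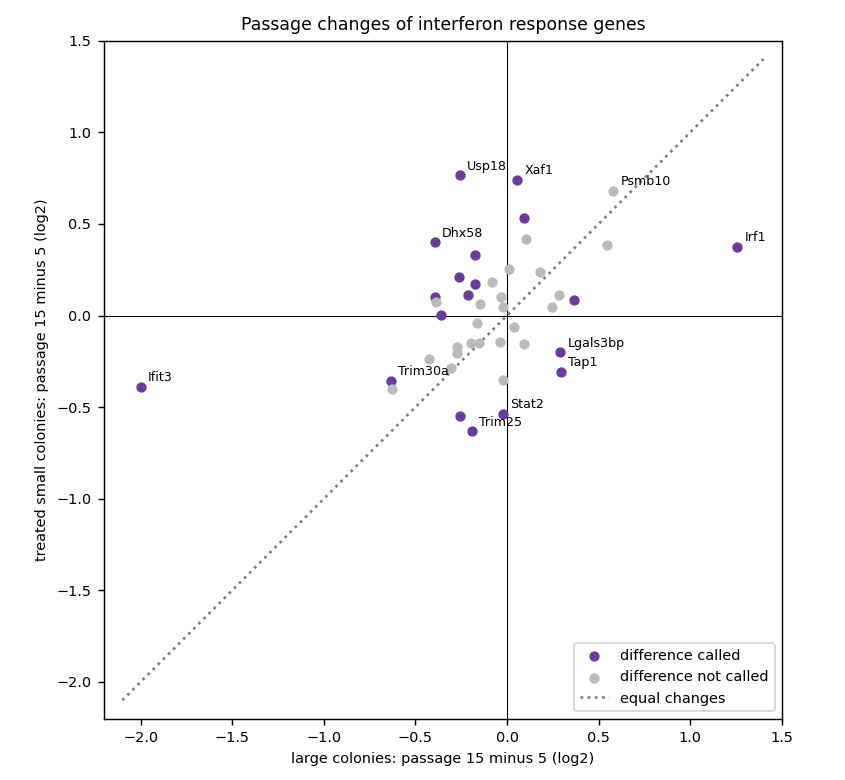
Log2 change from passage 5 to passage 15 of the 43 genes in untreated large colonies (x axis) and in PDGF-AB-treated small colonies (y axis), each from 3 arrays a group, with a dotted line where both are equal. Purple points are the 19 genes whose passage changes differed by the test, with Ifit3 and Irf1 far off the line.

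Late treated small colonies were low against early untreated ones, a comparison that mixes treatment and passage and shares its arrays with those above. In it 37 members were lower and 3 higher (25.0% and 29.6% of all genes, 54.7% in all), the median was -0.80 against 0.06, and 19 were at least 2-fold lower (3.04% of all genes, with 1.81% at least 2-fold higher). Ifit1 (5.87-fold), Trim25 (5.44-fold), Trim30a (4.43-fold), Ifit3 (4.37-fold), Oasl2 (4.21-fold), Rtp4 (3.99-fold), Usp18 (3.89-fold) and Stat2 (3.67-fold) were far lower. Oasl1 (0.51), Psmb9 (0.37) and Psmb10 (0.25) were higher. The call of Psmb10 was lost without replicate 1 or 3 of the untreated small colonies (adjusted p = 0.0536 and 0.105) or replicate 3 of the late treated ones (adjusted p = 0.0877), and that of Mx1 (-0.33) without replicate 2 of the untreated small colonies (adjusted p = 0.0675). Irf1 (0.04), Oas3 (0.16) and Psmb8 (0.15) were not called.

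The interferon genes themselves lay mostly near background. Ifnb1, which encodes interferon beta, read 3.79, 3.53 and 3.67 in untreated small colonies and 3.71, 3.74 and 3.71 in treated ones, and its 5 group means lay between 3.66 and 3.86, under the lowest lower quartile of the arrays. It was called in none of the 8 comparisons. At these levels a change in its RNA may lie below what the array detects. Of the 14 measured interferon genes only Ifnz was called with PDGF-AB (0.39, higher), where 28.9% of all genes were called and 10.7% called higher. Of the 14, 3 lay above the median gene.

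Of 16 genes of the receptors and the JAK-STAT pathway 5 fell and 2 rose with PDGF-AB, with a median of -0.02 (18.2% and 10.7% of all genes). Ifnar1 read 8.58, 8.67 and 8.54 without and 8.27, 8.21 and 8.27 with it (-0.35 ± 0.0593, limma adjusted p = 3.2e-04), and Ifnar2 read 10.15, 10.07 and 10.09 and 9.63, 9.64 and 9.63 (-0.47 ± 0.0523, adjusted p = 4.4e-06). Both receptor genes were also lower in large colonies at passage 5 (-0.28 and -0.50), but rose with passage in treated colonies (0.35 and 0.23). Late treated arrays of Ifnar1 (8.65, 8.59 and 8.56) overlapped the untreated small ones. The part of the receptor genes in the members' changes was not tested. Ptpn2, a phosphatase of JAK kinases, fell (-0.74), and the feedback inhibitor Socs3 (0.31) and the kinase Jak2 (0.21) rose. The interferon gamma receptor genes Ifngr1 (-0.20) and Ifngr2 (-0.18) fell slightly.

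Of 20 genes that sense nucleic acid or induce interferon 7 fell and 2 rose, with a median of -0.07, where 18.2% of all genes fell and 10.7% rose. Ddx58, which encodes RIG-I, read 8.79, 8.86 and 8.80 in untreated and 7.99, 7.91 and 7.82 in treated small colonies (1.88-fold lower, adjusted p = 1.5e-08), and Tlr3, the endosomal receptor for double-stranded RNA, changed by -0.56. Sting1, the adaptor of cytosolic DNA sensing, did not follow the members. It read 9.28, 9.18 and 9.06 in late large colonies, 9.15, 9.09 and 9.02 in untreated small and 8.84, 8.83 and 8.81 in treated early ones, against 7.69, 7.67 and 7.63 in early large and 6.84, 6.71 and 6.87 in late treated colonies. It thus rose with passage in large (1.51) and fell in treated small colonies (-2.02). Irf3, the factor that starts interferon beta transcription, was called higher with PDGF-AB (0.32), and Irf2, a repressor of ISRE genes, lower (-0.41). Zcchc3, a cofactor of the DNA sensor cGAS, was called higher (0.72).

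**Figure D5:**
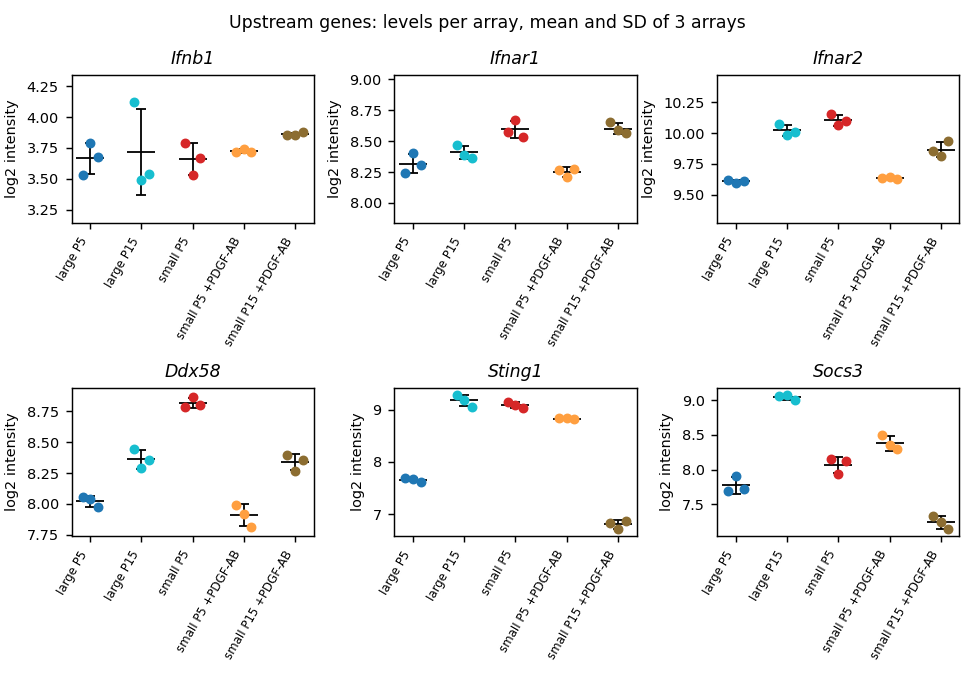
Log2 intensity per array (points) with mean and SD of 3 arrays (bars) of Ifnb1, the receptor genes Ifnar1 and Ifnar2, the sensor Ddx58, the adaptor Sting1 and the feedback inhibitor Socs3, the axes fitted to each gene. Ifnb1 overlaps between groups near background, Ddx58 is highest in untreated small colonies, and Sting1 is lowest in late treated small colonies.

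Further genes known to be induced by interferon, 56 outside the list, were mostly lower with PDGF-AB too: 35 fell and 1 rose, with a median of -0.40, where 18.2% of all genes fell and 10.7% rose. Ifi203 read 6.94, 6.69 and 7.04 in untreated against 4.12, 4.20 and 4.39 in treated small colonies (-2.65), and Ifi205 read 8.08, 7.75 and 7.97 against 5.64, 5.34 and 5.40 (-2.48). Both belong to the cytosolic DNA-binding HIN-200 family. Phf11d (-2.11) and the nuclear body protein gene Sp100 (-1.75) fell as well. In large against small colonies at passage 5, 26 of the 56 were lower and 8 higher, where 18.0% of all genes were lower and 18.2% higher. Ms4a4d fell with PDGF-AB (-2.94) but was higher in large than in small colonies (0.38), and rose with passage in large colonies (1.21).

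Of the 11 genes of MHC class I and its regulators 4 fell and 1 rose with PDGF-AB (median -0.15), where 18.2% of all genes fell and 10.7% rose. B2m, the invariant chain of class I, read 12.34, 12.25 and 12.31 without and 12.19, 12.26 and 12.40 with PDGF-AB (-0.02 ± 0.062, adjusted p = 0.854), with overlapping arrays. Erap1, which trims peptides (-0.86), and Tapbp, the chaperone tapasin (-0.78), fell. Of the 6 MHC class II genes 0 were called by limma, with a median of 0.07. Of 6 chemokines induced by interferon 3 fell and 0 rose (median -0.42): Ccl5 (-0.76), Cxcl10 (-0.74) and Ccl7 (-0.63).

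Members that lie next to each other among RefSeq's protein-coding genes did not always move alike. On chromosome 16 the neighbours Dtx3l and Parp9 changed with PDGF-AB by -1.30 and -1.20, and on chromosome 12 Rsad2 and Cmpk2 by -0.70 and -0.85. On chromosome 5, however, Oasl2 changed by -2.61 beside Oasl1 at 0.26, and Oas2 by -0.70 beside Oas3 at -0.03. In the MHC region of chromosome 17 Tap1 (-0.35) lies between Psmb9 (0.20) and Psmb8 (-0.05), and on chromosome 19 Ifit2 (-0.86) beside Ifit3 (-1.74). The differences between neighbours were not tested.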

How the data were processed

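RNA of 15 samples was measured on Affymetrix whole-transcript arrays, and the values used are the log2 intensities per probe set as deposited by the authors. Per the submitters' processing notes RMA and limma were used. Their versions and settings, and the array's genome build, are not given in the sources used here. Of 28853 probe sets 21789 named 1 gene in GEO's platform annotation, 1621 named several and 5443 were not listed. A gene was read from its single-gene probe set with the highest mean, which left 19938 genes. No further normalization or filter was applied.

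A linear model of the 5 groups was fitted over all 15 arrays with limma 3.58.1 in R 4.3.3 (lmFit and eBayes, 10 residual degrees of freedom), and p-values were adjusted over 19938 genes by Benjamini-Hochberg for each of 8 contrasts, with a threshold of 0.05. The code was tested on simulated data. Members and gene lists were chosen with earlier results of these data known, so no p is given for a list. Values per array are given for most members with a wide spread of group means, for the transcription factors, and for some antigen processing genes and Oas3, the last chosen after its values were seen. Genes named from the other lists were in part chosen after their values were seen. Promoter windows came from RefSeq (GRCm38.p6), and 10 measured members had none: Rtp4, Parp14, Oas2, Tap2, Mx2, Dhx58, Zbp1, Usp18, Parp9 and Mx1. Motifs were searched on both strands. Alternatives were other scalings, filters, probe set rules, variance models, a replicate block and leaving out each array. Replicate numbers were not used to pair samples, since same-numbered samples did not correlate over 0.1 in every pair of any comparison. The number of arrays limits the precision.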

Additional observations from a re-analysis of the deposited data

Results flagged for a closer look

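The change from passage 5 to passage 15 differed between treated small and large colonies in 19 interferon response genes, by the test of that difference (limma, adjusted over 19938 genes, where 34.4% of all genes were called). Each value is the passage change in treated small colonies minus that in large ones, in log2 units. Among the transcription factors it was -0.51 for Stat2 and -0.88 for Irf1, or -0.50 with the mean of both Irf1 probe sets. Among the sensors it was 0.79 for Dhx58, 0.32 for Zbp1 and 0.44 for Oasl2.

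The effectors gave 0.49 for Ifit1, 1.61 for Ifit3, 0.36 for Samd9l, 0.68 for Xaf1, -0.28 for Rtp4 and -0.49 for Lgals3bp. In the ISG15 and TRIM group the value was 1.02 for Usp18, -0.44 for Trim25 and 0.28 for Trim30a, and the GTPases gave 0.50 for Gbp7 and -0.29 for Irgm1. Antigen processing genes gave 0.47 for Psmb8, 0.35 for Psmb9 and -0.60 for Tap1.

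Of these calls 4 were lost when single arrays among the 12 were left out. Irgm1 was lost without 8 of them (adjusted p 0.0574 to 0.112): replicates 2 and 3 of early large, 1 and 2 of late large, 2 and 3 of early treated and 1 and 2 of late treated colonies. Rtp4 was lost without 7 (adjusted p 0.0545 to 0.114): replicates 1 and 2 of early large, 1 and 2 of late large, 2 of early treated and 1 and 3 of late treated colonies. Trim25 was lost without 4 (adjusted p 0.0511 to 0.0772): replicates 2 and 3 of early large, 1 of late large and 1 of early treated colonies. Samd9l was lost without replicate 1 of early treated colonies (adjusted p = 0.0501). PDGF-AB and colony size cannot be told apart in this difference.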

How the results depend on the processing

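Counts of called members kept within 1.5 times the value given above in every comparison and alternative, apart from these. With a 2-fold minimum the counts were 2 for passage in large colonies, 18 for large against small, 19 for PDGF-AB, 0 for passage in treated small colonies, 1 and 3 for treated small against large at passages 5 and 15, 19 for late treated against early untreated colonies, and 2 for the difference of the passage changes. Without genes below the median level 23 of 28 members tested were called between large and small colonies. Leaving out 1 array at a time gave 36 to 39 calls for PDGF-AB, 33 to 36 for large against small, 17 to 22 and 18 to 24 for passage in large and treated small colonies, 15 to 20 and 23 to 27 for treated small against large at passages 5 and 15, 39 to 40 for late treated against early untreated colonies, and 16 to 20 for the difference. No called change of a member turned its sign. The median over members did: for treated small against large at passage 15 it went from 0.09 to -0.09 without genes below the median level, and for passage in treated small colonies from 0.05 to -0.15 with that filter and to just below 0 with median centring and cyclic loess (-0.0019 and -0.016). With the replicate number as a block 39 members were called for PDGF-AB, 34 for large against small and 22 for passage in large colonies. In that last comparison same-numbered samples correlated at 0.208, 0.0984 and 0.202, and 6 of 6 samples correlated best with their own number, a hint from the data and not from the design.

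Probe sets near the lower quartile (Mx1, Mx2, and in some groups Cmpk2 and Rtp4) measure changes least well.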

Other observations

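Genes outside all lists were ranked by how closely their level followed the mean centred level of the 38 members whose group means spanned at least 0.5, over the 15 arrays and among 2692 genes with a span of at least 1. The points share that 1 group, untreated small colonies, stands apart, so these correlations describe likeness only and carry no p. The closest was Apod, which encodes the lipid carrier apolipoprotein D (Pearson's r = 0.996, with group means of 7.96 in untreated small colonies and 5.03 with PDGF-AB at passage 5). Mme, the membrane metallopeptidase neprilysin, followed (r = 0.993, 5.83 against 3.82), then Ifit3b (r = 0.991), a near copy of Ifit3. The flavin monooxygenase genes Fmo4 (r = 0.990, 7.70 in untreated small colonies) and Fmo1 (r = 0.989, 7.95 against 5.41) came next. Below them lay Zyg11b (0.979), Fam180a (0.978), Fgl2 (0.978), Igsf10 (0.975), Lrp5 (0.973), Rxfp1 (0.961), Pdlim3 (0.957), Ano1 (0.952), Fam162a (0.951) and Omd (0.950). Members were ranked too but help to define the mean they are set against, so their places are not read.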
